A study of Rattus norvegicus with 20 samples.

Results

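The genes described here are the Wnt ligands, the receptors that bind them and the proteins that restrain or report their signal, measured by RNA sequencing in rat lung after abdominal sepsis surgery with or without vagus nerve stimulation. They were chosen by symbol: all numbered Wnt, Fzd, Sfrp, Dkk and Rspo genes, Lgr4 to Lgr6, and Lrp5, Lrp6, Axin2, Lef1, Wif1, Nkd1, Nkd2, Notum, Znrf3 and Rnf43. Of the 19060 genes in the table, 52 fit this rule, namely 17 Wnt ligands, 10 Frizzled receptors, 2 co-receptors, 7 R-spondins and R-spondin receptors, 2 receptor ubiquitin ligases, 10 secreted antagonists and 4 intracellular proteins. Of these 52, 41 had enough reads to be tested and 11 did not.

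The study had 4 groups of 5 rats, with 1 library of whole lung tissue per labelled sample. Sham animals had a midline laparotomy in which the caecum was handled but neither tied nor punctured. CLP animals had caecal ligation and puncture, which lets gut bacteria into the abdomen and which the submitters use as a model of acute respiratory distress syndrome. The Sham+VNS and CLP+VNS groups had the same operations and also VNS, electrical stimulation of the right cervical vagus. Strain, age, sex, the time between operation and tissue collection, the stimulation settings and the handling of the nerve in unstimulated animals are unknown from the sources used here. CLP replicates were numbered 1, 3, 4, 5 and 6, CLP+VNS replicates 1, 3, 5, 8 and 11, and those of both sham groups 1 to 5; values below follow that order. Because the labels do not say that equal numbers mark paired animals, the libraries were treated as independent samples.

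Wnt proteins are secreted lipid-modified ligands that bind a Frizzled receptor. In the canonical branch they also bind the co-receptor LRP5 or LRP6, which stops the destruction of β-catenin and lets it act with TCF and LEF factors on target genes. Among these targets are Axin2, Nkd1, Nkd2, Znrf3, Rnf43 and Notum, whose products damp the signal again, while R-spondins bound to LGR receptors remove ZNRF3 and RNF43 from the cell surface and so keep more Frizzled there. In the lung, Wnt signalling is known for its part in the formation of the airways and alveoli, in the upkeep of alveolar type 2 cells and in repair after injury.

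The promoters of 5 members on which the results turn are shown first: the feedback genes Axin2, Nkd2 and Nkd1, and Wnt7a and Wnt4, the ligands that moved most clearly in opposite directions. Each line gives the 250 bases before the annotated start, 5′ to 3′ on the strand of the gene, from RefSeq on assembly GRCr8, which is not the assembly of the expression tables. Capitals mark the core of the TCF/LEF motif, CTTTGA, on either strand.

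Axin2 promoter, chr10:94398535-94398784 (+): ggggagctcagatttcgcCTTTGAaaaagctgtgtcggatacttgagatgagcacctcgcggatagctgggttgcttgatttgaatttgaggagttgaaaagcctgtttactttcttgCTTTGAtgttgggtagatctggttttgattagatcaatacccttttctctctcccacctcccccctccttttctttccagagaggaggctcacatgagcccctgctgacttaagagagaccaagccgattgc
Nkd2 promoter, chr1:31272282-31272531 (+): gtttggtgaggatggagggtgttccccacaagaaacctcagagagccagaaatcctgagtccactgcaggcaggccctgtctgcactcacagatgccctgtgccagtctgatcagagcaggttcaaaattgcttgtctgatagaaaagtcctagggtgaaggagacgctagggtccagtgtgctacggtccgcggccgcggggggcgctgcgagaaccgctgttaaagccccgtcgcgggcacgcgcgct
Nkd1 promoter, chr19:34722847-34723096 (-): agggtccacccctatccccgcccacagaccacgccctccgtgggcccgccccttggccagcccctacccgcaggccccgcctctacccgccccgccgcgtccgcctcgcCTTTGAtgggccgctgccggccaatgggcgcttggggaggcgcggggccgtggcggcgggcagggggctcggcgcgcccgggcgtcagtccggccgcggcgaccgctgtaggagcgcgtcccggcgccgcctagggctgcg
Wnt7a promoter, chr4:125466150-125466399 (-): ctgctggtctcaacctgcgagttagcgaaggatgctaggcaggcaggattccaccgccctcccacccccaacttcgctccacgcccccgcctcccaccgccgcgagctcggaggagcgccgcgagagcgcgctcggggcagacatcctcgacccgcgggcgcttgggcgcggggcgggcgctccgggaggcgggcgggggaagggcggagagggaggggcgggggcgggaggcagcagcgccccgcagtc
Wnt4 promoter, chr5:154797200-154797449 (+): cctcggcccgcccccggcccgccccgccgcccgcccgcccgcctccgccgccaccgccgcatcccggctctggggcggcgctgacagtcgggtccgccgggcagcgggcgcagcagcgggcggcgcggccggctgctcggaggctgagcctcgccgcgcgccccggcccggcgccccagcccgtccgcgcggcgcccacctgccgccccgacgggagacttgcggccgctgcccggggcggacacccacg

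Axin2 held the 6 letters in 2 places, starting 232 and 132 bases before the start site, and Nkd1 in 1 place, 141 bases before it. The Nkd2, Wnt7a and Wnt4 stretches held none. In windows of 300 bases, from 250 before to 50 after the start, 34 of the 52 members were found in the RefSeq table and 5 of them (14.7%) held the motif on either strand, which were Axin2, Nkd1, Fzd7, Dkk1 and Wnt8a. Of all 27457 promoters in that table, 15.9% held it. Among the 17 members with a promoter that differed between CLP and Sham, it was in 1, Axin2. The members' promoters were richer in G and C, with a median of 65.3% against 52.3% over all promoters. A match of these letters is a description and not a binding site.

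Total counts per library were 13729654 to 14453188. Levels are given as CPM, counts scaled to a common library total with TMM factors, and as TPM, the authors' value per transcript length, wherever genes are compared with each other. All p-values of genes are two-sided, from edgeR's quasi-likelihood test with Benjamini-Hochberg adjustment over the 14794 genes tested, with 0.05 as the threshold for a call. As a check of the tissue label, the summed level of 8 alveolar type 2 markers was 20680 to 37110 CPM in the 20 libraries. Markers of 9 other cell types and of neutrophils were summed in the same way. All 9 tested neutrophil markers were higher in CLP than in Sham (median log2 fold change 2.78), with sums of 349 to 849 CPM in Sham and 2860 to 4651 CPM in CLP. Sham replicate 1 stood apart, with a summed level of 7 adipocyte markers of 1827 CPM, against 17.8 to 68.3 CPM in the rest of its group. In Sham+VNS this sum was 448 CPM in replicate 2 and 168 CPM in replicate 4, against 19.7 to 35.5 CPM in the other 3 libraries, and it was 56.1 to 134 CPM in CLP and 42.5 to 111 CPM in CLP+VNS. Fabp4, which is also in the macrophage list, was the largest part in CLP and CLP+VNS, with means of 63.8 and 44.2 CPM. Adipoq had means of 0.0288 and 0.345 CPM in those groups and 58.9 CPM in Sham, where replicate 1 held 285 CPM. Cfd, Cidec and Pck1 had means of 11.1, 5.3 and 5.14 CPM in CLP. In CLP against Sham 3 of 5 tested adipocyte markers were lower, 1 of 6 airway epithelium markers was lower, 3 of 7 macrophage markers were higher and 2 of 8 alveolar type 2 markers were higher. Over all genes tested, 20.5% were lower and 19.8% higher there, so the airway epithelium and alveolar type 2 counts were near those shares.

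After CLP, more Wnt genes of the lung were lower than higher. Of the 41 tested members, 20 (48.8%) were lower in CLP than in Sham, 5 (12.2%) were higher and 16 were not called. Over all genes tested, 20.5% were called lower and 19.8% higher. The median log2 fold change of the members was -0.60, beside -0.01 over all genes. The CLP and Sham libraries did not overlap for 19 members that were lower and 3 that were higher, beside 12.7% and 13.4% of all genes; Wnt7b was 1 of the 19 and was not called. By role, 6 of 11 tested ligands, 3 of 9 Frizzleds, both ubiquitin ligases, 3 of 8 secreted antagonists and 3 of 4 intracellular proteins were lower, as were Lrp5, Rspo1 and Rspo2. The 5 that rose were Wnt4, Fzd9, Lrp6, Lgr4 and Sfrp1. In bulk tissue, fewer cells of a type and less RNA per cell cannot be told apart.

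With stimulation the operation gave a like picture in separate animals. Between CLP+VNS and Sham+VNS, 17 of the 41 members were lower and 5 higher, beside 13.4% and 13.9% of all genes, and the median was -0.48, beside -0.01 over all genes. The 2 groups did not overlap for 16 lower and 5 higher members, beside 9.22% and 9.65% of all genes; Fzd5 and Wnt9a were among the 16 and were not called. All 25 members called without stimulation had the same sign with it, a count that was not made over all genes. In both comparisons 20 were called, which is 80.0% of the 25. Over all genes called without stimulation, 56.3% were also called with it. The 5 called only without stimulation were Wnt2, Rspo2, Sfrp2, Znrf3 and Lef1, and the 2 called only with it were Wnt7b and Fzd7. The test of the difference itself, the interaction, called no member by edgeR, DESeq2 or limma-voom.

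**Figure D1:**
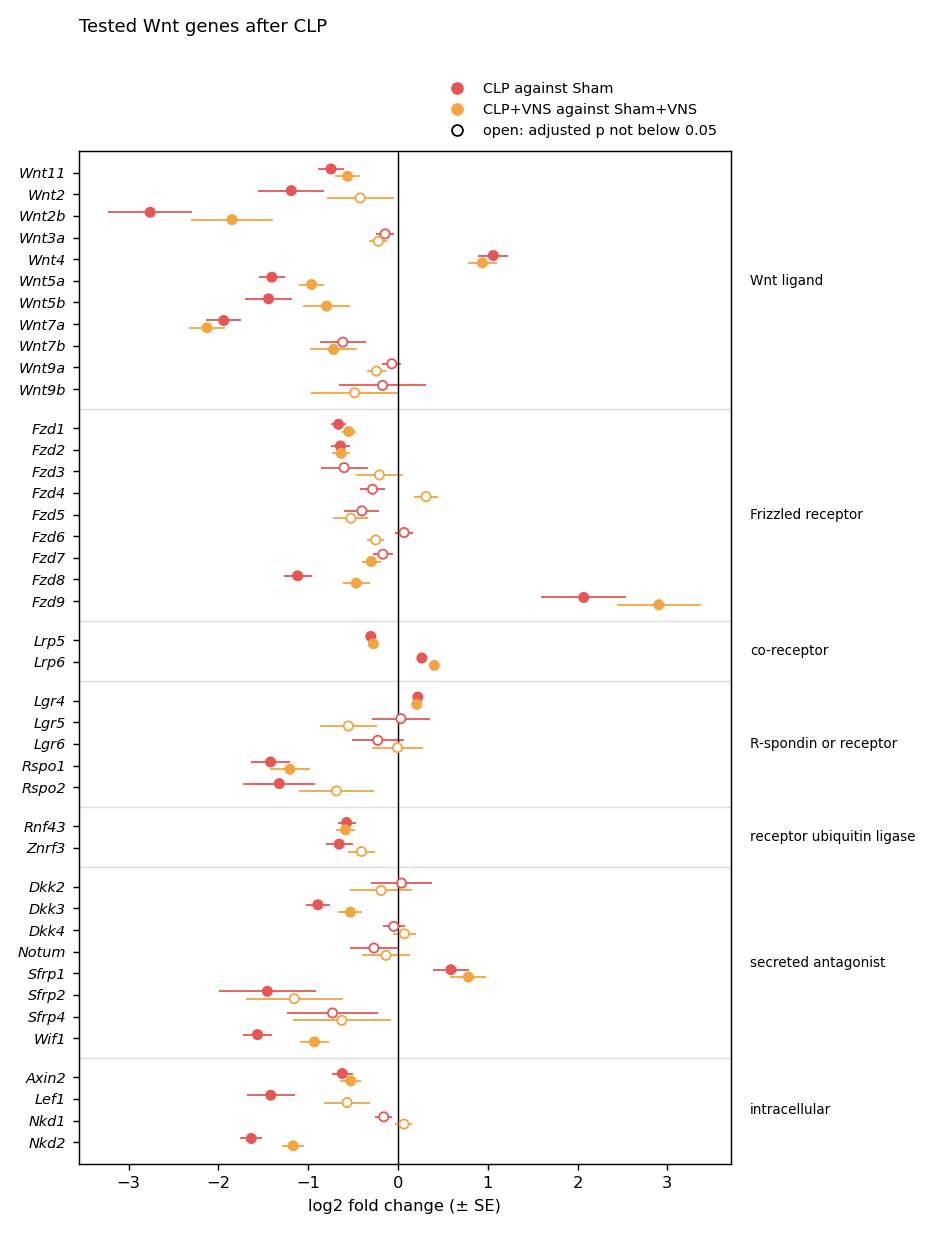
Log2 fold change with its standard error (x axis) of each of the 41 tested Wnt genes (y axis, grouped by role), for CLP against Sham in red and CLP+VNS against Sham+VNS in orange, 5 libraries per group. Filled points have an adjusted p below 0.05. Most filled points lie left of 0, and Wnt4, Fzd9, Lrp6, Lgr4 and Sfrp1 are the filled points on the right in both colours.

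Among the ligands, Wnt3a, a canonical Wnt, and Wnt4, which acts in kidney and gonad formation among other places, were the most abundant in Sham by TPM, at 31.9 ± 4.71 and 26.7 ± 4.31 (mean ± SD, n = 5). Wnt7a followed at 20.4 ± 1.61, then Wnt5b at 12.1 ± 4.42, Wnt5a at 10.7 ± 1.9, Wnt11 at 9.71 ± 1.61, Wnt9a at 8.23 ± 0.893 and Wnt2b at 6.62 ± 5.57. Neighbours in this order differed by less than the sum of their SDs, except Wnt4 and Wnt7a, and Wnt7a and Wnt5b. The summed TPM of the 17 ligands was 131 ± 6.41 in Sham, 126 ± 9.32 in Sham+VNS, 105 ± 13.1 in CLP and 109 ± 9.33 in CLP+VNS. The make-up of the sum differed more than the sum. Wnt4 made up 20.4% ± 3.38 of it in Sham and 46.2% ± 6.23 in CLP, and 22.5% ± 4.94 in Sham+VNS and 46.8% ± 4.05 in CLP+VNS. Wnt7a made up 15.7% ± 1.27 in Sham and 4.89% ± 1.54 in CLP, and 16.3% ± 2.42 in Sham+VNS and 4.19% ± 1.52 in CLP+VNS. The Wnt3a share was 24.3% ± 3.25 in Sham and 26% ± 3.7 in CLP. The lowest Wnt4 share after CLP, with or without stimulation, was 39.0%, and the highest after a sham operation was 28.9%.

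**Figure D2:**
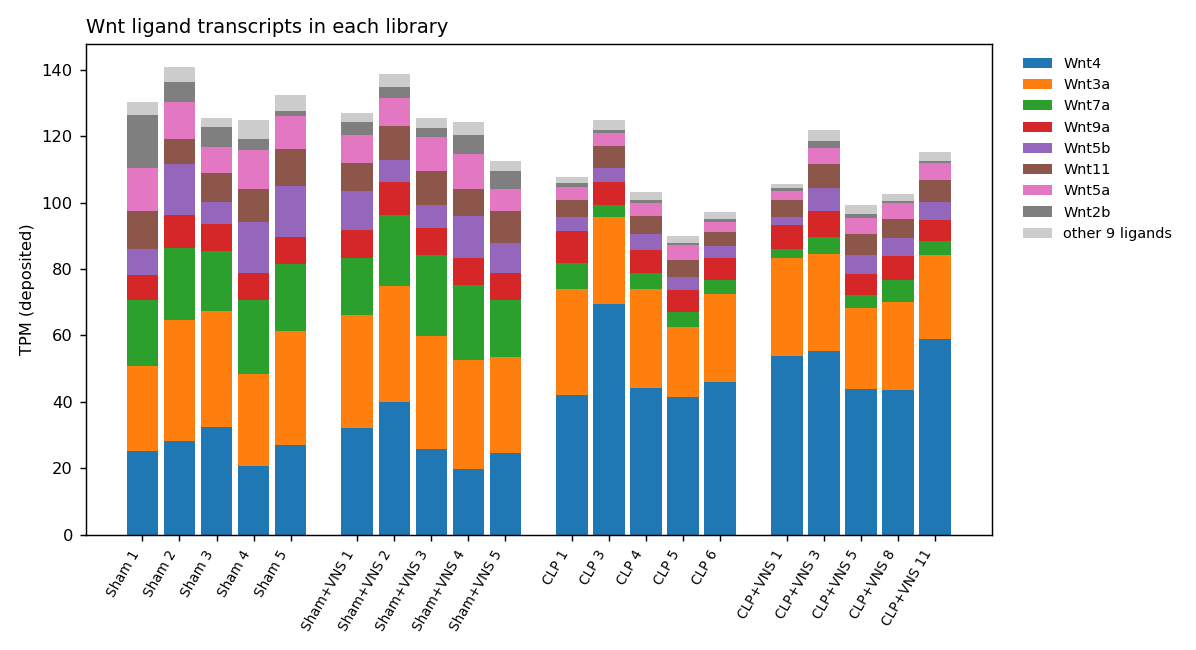
Deposited TPM (y axis) of the Wnt ligands stacked for each of the 20 libraries (x axis, labelled by group and replicate). The blue Wnt4 segment is taller and the green Wnt7a segment shorter in all 10 libraries of CLP-operated animals, while the orange Wnt3a segment is of like height throughout.

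Wnt4 was the ligand that rose. Its CPM was 43.5, 48.4, 59.2, 37.2 and 46.2 in the Sham libraries and 83.5, 132, 89.5, 86.3 and 98.2 in the CLP libraries. Every CLP library was above every Sham library, and the level was 2.09-fold higher (log2 fold change 1.06 ± 0.16, adjusted p = 5.3e-05). With stimulation it was 58.3, 72.1, 50.3, 36.6 and 45 CPM after the sham operation and 111, 103, 90.5, 84.7 and 113 CPM after CLP. Those groups did not overlap either (log2 fold change 0.94 ± 0.16, adjusted p = 0.000292).

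Wnt7a, a ligand made by epithelia, was the ligand with the lowest adjusted p. The Sham libraries held 37.6, 41.9, 36.7, 44 and 38.8 CPM and the CLP libraries 15.7, 7.34, 10.1, 9.6 and 9.04 CPM. The highest CLP library was below the lowest Sham library, a 3.84-fold lower level (log2 fold change -1.94 ± 0.20, adjusted p = 5.71e-07). In Sham+VNS the values were 33.9, 41.3, 48, 44.1 and 34.3 CPM, and in CLP+VNS 5.74, 10.7, 7.85, 13.7 and 8.14 CPM, again without overlap and 4.37-fold lower (log2 fold change -2.13 ± 0.20, adjusted p = 4.95e-07). Of 8 alveolar type 1 markers, 6 (75.0%) were also lower in CLP than in Sham, beside 20.5% of all genes, with a median log2 fold change of -0.44. The 8 markers summed to 8503 to 11730 CPM in Sham and 6075 to 9173 CPM in CLP. The 8503 CPM came from Sham replicate 1, and the other Sham sums were 10220 to 11730 CPM. With stimulation the markers summed to 9787 to 12270 CPM in Sham+VNS and 7425 to 8931 CPM in CLP+VNS. Between those groups 6 of 8 were lower too, beside 13.4% of all genes, and none of the 8 was at 0. Their part in the Wnt7a result was not tested.

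Wnt5a and Wnt5b, which act mainly outside the β-catenin branch in cell movement and polarity, both fell. Wnt5a was at 48.1, 41.7, 32.8, 45.9 and 38.2 CPM in Sham and 15.6, 15.6, 15.2, 18.4 and 13.3 CPM in CLP. The groups were far apart, with a 2.65-fold lower level in CLP (log2 fold change -1.40 ± 0.14, adjusted p = 6.16e-07). With stimulation Wnt5a was at 35.4, 32.2, 39.7, 41 and 28.4 CPM in Sham+VNS and 11.5, 19.6, 19.7, 20 and 19.8 CPM in CLP+VNS, 1.95-fold lower (log2 fold change -0.96 ± 0.14, adjusted p = 5.93e-05). Replicate 1 was well below the other CLP+VNS libraries, which lay close together. Wnt5b was at 10.1, 19.9, 9.29, 20 and 19.2 CPM in Sham and 5.93, 6.07, 6.44, 5.27 and 5.22 CPM in CLP. It did not overlap, although 2 Sham libraries were well below the other 3, and was 2.71-fold lower (log2 fold change -1.44 ± 0.26, adjusted p = 0.000239). In the stimulated animals Wnt5b was at 15.7, 8.27, 9.33, 16.5 and 12.2 CPM after the sham operation and 3.58, 9.46, 8.07, 7.27 and 7.3 CPM after CLP. These groups overlapped, and the 1.73-fold lower level (log2 fold change -0.79 ± 0.26, adjusted p = 0.0271) was not called when CLP+VNS replicate 1 was left out (adjusted p = 0.0675), nor without Sham+VNS replicate 1 (adjusted p = 0.0688) or 4 (adjusted p = 0.0817).

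Wnt2b and Wnt2, ligands needed for the lung to be laid down in the embryo, were lower as well and varied more among Sham animals. Wnt2b had 15.6, 6.01, 6.24, 3.59 and 1.52 CPM in Sham and 1.14, 0.988, 1.01, 0.732 and 0.955 CPM in CLP. All CLP values were below all Sham values, with the largest fold among the ligands, 6.77-fold lower (log2 fold change -2.76 ± 0.46, adjusted p = 0.000113). The highest value came from Sham replicate 1, and without it the log2 fold change was -2.16 (adjusted p = 0.000157). In Sham+VNS, Wnt2b was at 4.01, 3.27, 3.02, 5.78 and 5.56 CPM and in CLP+VNS at 1.04, 2.08, 1.3, 0.713 and 0.842 CPM, also without overlap (log2 fold change -1.85 ± 0.45, adjusted p = 0.00483). Wnt2 was at 9.02, 9.64, 3.77, 19.7 and 15 CPM in Sham and 3.07, 9.32, 4.27, 3.59 and 4.78 CPM in CLP. These ranges overlapped; the log2 fold change was -1.19 ± 0.37 (adjusted p = 0.0152), and -0.90 (adjusted p = 0.0586) without Sham replicate 4, the highest library. In Sham+VNS, Wnt2 was at 6.61, 5.01, 6.72, 12.6 and 5.56 CPM, and in CLP+VNS at 3.65, 6.31, 5.55, 6.13 and 5.61 CPM, and the difference was not called (log2 fold change -0.42 ± 0.37, adjusted p = 0.443).

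Wnt11, a non-canonical ligand, was at 12.1, 7.9, 9.65, 11.5 and 11.1 CPM in Sham and 6.14, 7.98, 6.01, 6.23 and 4.78 CPM in CLP. CLP replicate 3 reached into the Sham range, and Wnt11 was 1.68-fold lower (log2 fold change -0.75 ± 0.14, adjusted p = 0.000327). With stimulation it was at 9.14, 10.7, 11, 8.92 and 10.2 CPM in Sham+VNS and 5.22, 7.89, 7.42, 6.27 and 7.09 CPM in CLP+VNS, with no overlap (log2 fold change -0.56 ± 0.14, adjusted p = 0.00526). Wnt7b, an epithelial ligand, was at 2.32, 2.8, 2.03, 2.04 and 2 CPM in Sham and 1.93, 0.918, 1.23, 1.68 and 1.54 CPM in CLP. The groups did not overlap but the difference missed the threshold (log2 fold change -0.61 ± 0.25, adjusted p = 0.0602). In Sham+VNS, Wnt7b was at 1.69, 2.99, 1.99, 1.5 and 1.9 CPM and in CLP+VNS at 0.746, 2.01, 1.3, 1.14 and 0.912 CPM, where the groups overlapped and the difference just passed (log2 fold change -0.72 ± 0.26, adjusted p = 0.0455); 16 of 27 alternatives, most of them leaving out 1 library, did not call it (adjusted p up to 0.386).

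The remaining tested ligands showed no called difference in any comparison. Wnt3a was at 54.5 ± 8.63 CPM in Sham and 49.3 ± 6.54 CPM in CLP (log2 fold change -0.14 ± 0.10, adjusted p = 0.281). Wnt9a was at 17.1 ± 1.93 and 16.3 ± 2.65 CPM (log2 fold change -0.07 ± 0.10, adjusted p = 0.632), and Wnt9b, a ligand of the urogenital ducts, at 0.827 ± 0.464 and 0.734 ± 0.425 CPM (log2 fold change -0.17 ± 0.48, adjusted p = 0.808). Wnt3, Wnt6, Wnt8a, Wnt8b, Wnt10a and Wnt10b did not reach the count filter, and their highest value in any of the 20 libraries was 0.626 CPM, for Wnt6.

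**Figure D3:**
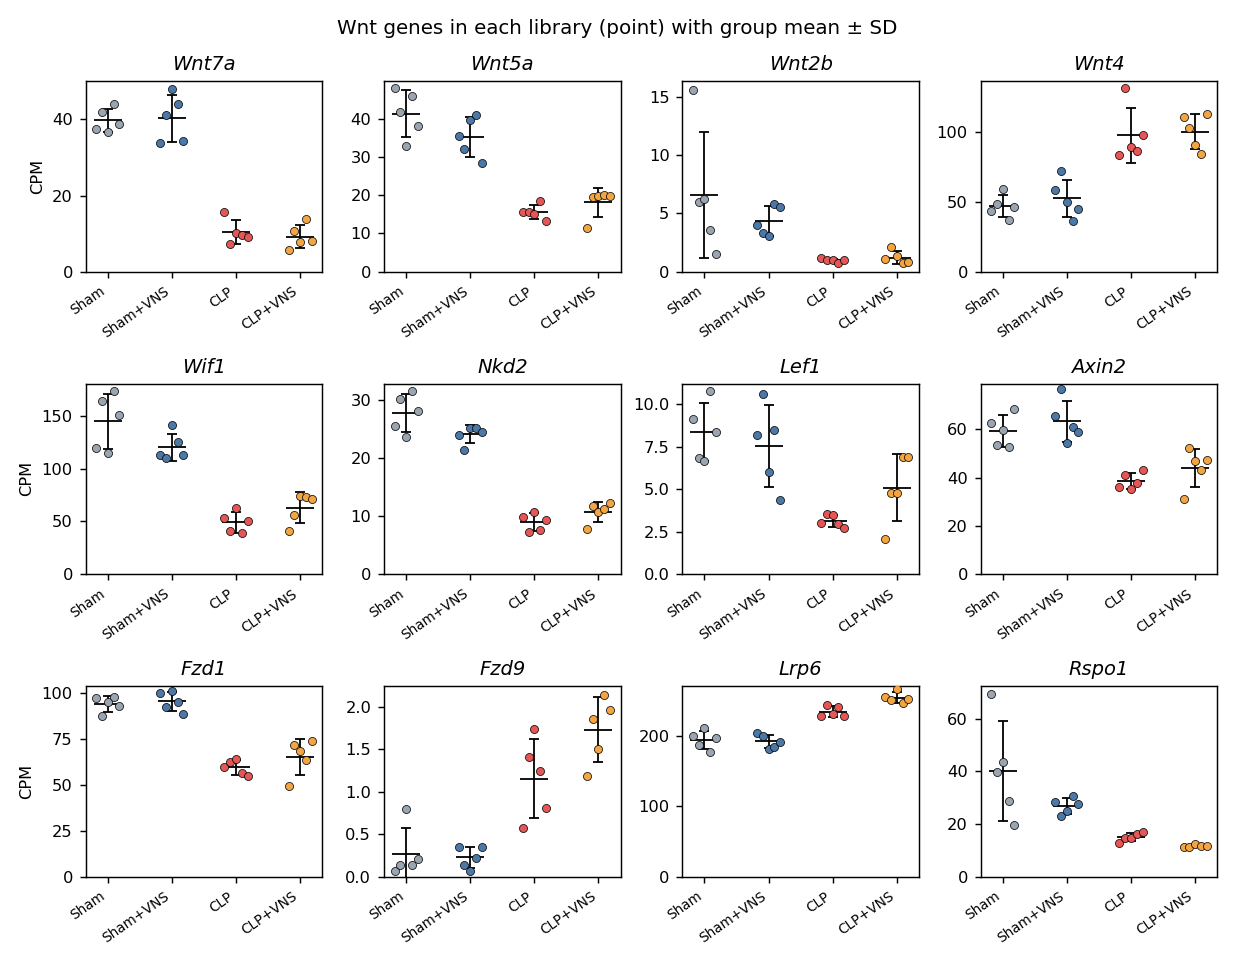
CPM (y axis, starting at 0) of 12 Wnt genes in every library (points), by group (x axis), with the mean and SD of 5 libraries as black bars. Wnt7a, Wnt5a, Wif1, Nkd2 and Fzd1 separate CLP-operated from sham-operated animals downward and Wnt4 and Lrp6 upward, as does Fzd9 apart from 1 Sham library, while Wnt2b and Rspo1 show a wide spread in Sham.

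Of the Frizzled receptors, Fzd4, known from the growth of blood vessels, and Fzd2 and Fzd1 made up most of the summed TPM. The sum over the 10 Frizzleds was 163 ± 8.45 TPM in Sham, 111 ± 11.9 in CLP, 155 ± 9.94 in Sham+VNS and 125 ± 15.5 in CLP+VNS. Fzd1 was at 97.2, 87.1, 94.9, 97.8 and 92.6 CPM in Sham and 59.4, 62.3, 64, 56.5 and 54.6 CPM in CLP. The replicates of each group lay close together and well apart from the other group, a 1.58-fold lower level (log2 fold change -0.66 ± 0.08, adjusted p = 3.81e-06). With stimulation Fzd1 was at 99.8, 92.3, 101, 94.9 and 88.6 CPM in Sham+VNS and 49.2, 71.5, 68.5, 63.1 and 73.5 CPM in CLP+VNS (log2 fold change -0.55 ± 0.08, adjusted p = 5.14e-05). Fzd2 was at 43.5, 45.3, 41.6, 34.1 and 38.3 CPM in Sham and 28.9, 22.9, 26.9, 20.7 and 30.7 CPM in CLP, without overlap (log2 fold change -0.64 ± 0.10, adjusted p = 6.84e-05). The stimulated groups were likewise apart, at 35.1, 37.8, 46.5, 35.5 and 38.6 CPM in Sham+VNS and 25.1, 27.2, 25.5, 23.5 and 23.6 CPM in CLP+VNS (log2 fold change -0.63 ± 0.10, adjusted p = 0.000146).

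In CLP against Sham, Fzd8 showed the largest drop among the Frizzleds, whereas between the stimulated groups the estimates of Fzd1, Fzd2 and Fzd5 were lower than that of Fzd8. Fzd8 was at 55.2, 82.4, 66.5, 96.2 and 90.4 CPM in Sham and 37.7, 43.1, 41.2, 25.4 and 32.7 CPM in CLP. The lowest Sham library was above the highest CLP library, and Fzd8 was 2.17-fold lower (log2 fold change -1.12 ± 0.15, adjusted p = 1.69e-05). In stimulated animals the values were 73.8, 74.5, 59.8, 78.7 and 59.4 CPM after the sham operation and 39.5, 54.5, 50.2, 51.2 and 55.4 CPM after CLP. These also did not overlap but were closer (log2 fold change -0.47 ± 0.15, adjusted p = 0.0288), and the call was lost without CLP+VNS replicate 1 (adjusted p = 0.0785) or 5 (adjusted p = 0.0503) or Sham+VNS replicate 1 (adjusted p = 0.0575), 2 (adjusted p = 0.0571) or 4 (adjusted p = 0.0748).

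Fzd9 was the Frizzled that rose, from a very low level. It passed the count filter through libraries of CLP-operated animals, so whether it was tested at all depended on its level after CLP. It was at 0.0704, 0.14, 0.798, 0.141 and 0.207 CPM in Sham and 0.572, 1.41, 1.74, 1.25 and 0.808 CPM in CLP. Only Sham replicate 3 reached into the CLP range; the level was 4.19-fold higher (log2 fold change 2.07 ± 0.47, adjusted p = 0.00175), and without that library the log2 fold change was 2.97 (adjusted p = 4.15e-05). With stimulation Fzd9 was at 0.351, 0.139, 0.0686, 0.214 and 0.352 CPM in Sham+VNS and 1.19, 1.86, 1.51, 2.14 and 1.97 CPM in CLP+VNS, with no overlap (log2 fold change 2.90 ± 0.47, adjusted p = 0.000133). Even after CLP it made up 0.719% ± 0.288 of the summed Frizzled TPM.

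Fzd4, the most abundant Frizzled, was not called. Its level was 175 ± 22 CPM in Sham, 143 ± 24.1 in CLP, 150 ± 24.9 in Sham+VNS and 186 ± 30 in CLP+VNS, and the estimate was below 0 without stimulation (log2 fold change -0.28 ± 0.14, adjusted p = 0.106) and above 0 with it (log2 fold change 0.31 ± 0.14, adjusted p = 0.0993). Fzd7 was at 10.8 to 13.8 CPM in Sham and 9.74 to 11.5 CPM in CLP (log2 fold change -0.17 ± 0.11, adjusted p = 0.231). In stimulated animals it was at 12.5 to 15.6 CPM after the sham operation and 8.43 to 12.8 CPM after CLP, overlapping but called (log2 fold change -0.30 ± 0.11, adjusted p = 0.0465); 14 of 27 alternatives, most of them leaving out 1 library, did not call it (adjusted p up to 0.129). Fzd3, Fzd5 and Fzd6 were not called in either comparison of the operations, with log2 fold changes of -0.60 ± 0.26 (adjusted p = 0.0755), -0.40 ± 0.20 (adjusted p = 0.11) and 0.07 ± 0.10 (adjusted p = 0.615) in CLP against Sham. Fzd10 did not reach the count filter and was at most 0.834 CPM.

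The co-receptors moved in opposite directions by small but well-measured amounts. Lrp5 was at 122, 124, 135, 124 and 123 CPM in Sham and 104, 93, 111, 95.7 and 106 CPM in CLP, without overlap (log2 fold change -0.30 ± 0.06, adjusted p = 0.000232). Lrp6 was at 200, 188, 212, 178 and 197 CPM in Sham and 228, 245, 231, 241 and 228 CPM in CLP, with every CLP library the higher (log2 fold change 0.27 ± 0.05, adjusted p = 0.000157). By TPM, which allows the 2 genes to be compared, Lrp5 stood at 38.4 ± 0.86 and Lrp6 at 33 ± 2.15 in Sham, and at 29.2 ± 2.37 and 37.3 ± 1.26 in CLP, so their order turned. With stimulation Lrp5 ranged over 122 to 139 CPM in Sham+VNS and 96.2 to 113 CPM in CLP+VNS (log2 fold change -0.27 ± 0.06, adjusted p = 0.000931). Lrp6 ranged over 181 to 204 and 247 to 267 CPM (log2 fold change 0.40 ± 0.05, adjusted p = 3.9e-06), and neither gene overlapped.

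R-spondins amplify Wnt signalling through LGR4, LGR5 and LGR6. Rspo1, by far the most abundant of the 4, was at 69.5, 39.8, 43.6, 28.6 and 19.4 CPM in Sham and 12.9, 14.8, 14.5, 16.1 and 16.8 CPM in CLP. The Sham libraries varied widely, yet all lay above the CLP libraries, and Rspo1 was 2.67-fold lower (log2 fold change -1.42 ± 0.22, adjusted p = 5.23e-05). Sham replicate 1 was again the highest, and the log2 fold change was -1.13 (adjusted p = 3.65e-05) without it. With stimulation Rspo1 was at 28.4, 22.9, 25, 30.7 and 27.4 CPM in Sham+VNS and 11.4, 11.3, 12.3, 11.6 and 11.7 CPM in CLP+VNS, without overlap (log2 fold change -1.20 ± 0.22, adjusted p = 0.000503). Rspo1 and Wnt2b were thus both highest in Sham replicate 1, where the summed level of 6 mesothelium markers was also highest, at 1377 CPM, against sums between 427 and 802 CPM in the rest of that group and between 601 and 801 CPM in CLP. Of these 6 markers 2 (33.3%) were lower and none higher in CLP (median log2 fold change -0.50), beside 20.5% of all genes lower, and none was at 0. Msln and Lrrn4 had higher means in CLP, at 254 and 108 CPM, than in Sham, at 172 and 94.3 CPM. In the stimulated groups 2 of the 6 markers were also lower (median -0.28), beside 13.4% of all genes. Their sums were 555 to 704 CPM in Sham+VNS and 324 to 507 CPM in CLP+VNS. Within Sham, the adipocyte, fibroblast, T cell and macrophage sums were also highest in replicate 1, with Fabp4 giving 698 of the 1238 CPM of the macrophage sum. The alveolar type 1, alveolar type 2, endothelial, airway epithelium and neutrophil sums were lowest there. The alveolar type 2 sum was 20680 CPM in that library, against 26180 to 34940 CPM in the rest of the group. The part of any of these markers in the Rspo1 and Wnt2b results was not tested.

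Rspo2, another R-spondin, was at 1.69, 1.61, 1.38, 1.69 and 1.8 CPM in Sham and 0.572, 1.06, 1.09, 0.366 and 0.147 CPM in CLP. It passed the count filter through libraries of sham-operated animals, so whether it was tested at all depended on its level there. The CLP and Sham groups did not overlap (log2 fold change -1.32 ± 0.40, adjusted p = 0.0124). Sham+VNS held 0.914, 0.765, 0.755, 1.71 and 0.844 CPM and CLP+VNS 0.224, 0.717, 0.649, 0.356 and 1.12 CPM, which overlapped and were not called (log2 fold change -0.69 ± 0.42, adjusted p = 0.246). Among the receptors, Lgr4 rose slightly, from 27.5 to 31.9 CPM in Sham to 33 to 37.7 CPM in CLP (log2 fold change 0.22 ± 0.05, adjusted p = 0.00112) and from 29.2 to 32.1 CPM in Sham+VNS to 34 to 36.2 CPM in CLP+VNS (log2 fold change 0.21 ± 0.05, adjusted p = 0.00273). Lgr5 and Lgr6, known as stem cell markers in epithelia, were low and not called, at 1.45 ± 0.545 and 5.03 ± 1.22 CPM in Sham and 1.48 ± 0.347 and 4.31 ± 2.17 CPM in CLP. Rspo3 and Rspo4 did not reach the count filter, with highest values of 0.879 and 0.986 CPM.

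Rnf43 and Znrf3, which mark Frizzled for removal from the membrane, were both lower after CLP. Rnf43 was at 10.2, 11.7, 11, 10.7 and 9.74 CPM in Sham and 7, 7.41, 7.17, 6.59 and 7.64 CPM in CLP, without overlap (log2 fold change -0.57 ± 0.10, adjusted p = 0.000162). In the stimulated groups it was at 8.65, 11.5, 11.4, 10.2 and 8.59 CPM in Sham+VNS and 6.41, 7.03, 5.77, 7.77 and 6.6 CPM in CLP+VNS, again apart (log2 fold change -0.58 ± 0.10, adjusted p = 0.000241). Znrf3 was at 8.31, 8.18, 8.13, 6.05 and 6.08 CPM in Sham and 4.14, 4.87, 4.42, 4.83 and 5.07 CPM in CLP (log2 fold change -0.65 ± 0.15, adjusted p = 0.00195). With stimulation its values, 6.19, 8.69, 5.62, 7.56 and 5.49 CPM in Sham+VNS and 4.1, 5.31, 5.33, 6.27 and 4.28 CPM in CLP+VNS, overlapped and just missed the threshold (log2 fold change -0.41 ± 0.15, adjusted p = 0.0517).

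Many secreted antagonists bind Wnt proteins or their co-receptors. The 10 members counted here were grouped by symbol, and not all of them need act in this way. Their summed TPM was 162 ± 20.5 in Sham and 72.4 ± 6.75 in CLP, and 134 ± 13.3 in Sham+VNS and 82.5 ± 13.9 in CLP+VNS. Much of this was Wif1, the Wnt inhibitory factor, with 67.2% ± 7.95 of the sum in Sham and 47.5% ± 6.23 in CLP. Wif1 was at 120, 164, 115, 174 and 151 CPM in Sham and 52.7, 40.5, 62.2, 38.8 and 50.6 CPM in CLP. No CLP library came near the Sham range, and Wif1 was 2.96-fold lower (log2 fold change -1.56 ± 0.17, adjusted p = 9.95e-07). With stimulation it was at 113, 110, 141, 125 and 113 CPM in Sham+VNS and 40.5, 55.8, 74.5, 73.5 and 71 CPM in CLP+VNS, which did not overlap either (log2 fold change -0.93 ± 0.16, adjusted p = 0.000308).

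Dkk3, a member of the Dickkopf family, was at 80.8, 71.5, 47.9, 53 and 58.1 CPM in Sham and 32.7, 31.9, 31.8, 40.7 and 30.8 CPM in CLP, without overlap (log2 fold change -0.89 ± 0.13, adjusted p = 3.83e-05). In Sham+VNS it was at 49.3, 54.3, 54.3, 50.1 and 46.3 CPM and in CLP+VNS at 27.9, 43.7, 40.1, 31.9 and 32.5 CPM (log2 fold change -0.53 ± 0.13, adjusted p = 0.00603). Those groups were separate too, with a smaller gap. Sfrp1 and Sfrp2 are secreted Frizzled-related proteins, which carry a Frizzled-like Wnt-binding domain. Sfrp1 was the antagonist that rose, with 23.5, 21.2, 19.3, 12 and 9.18 CPM in Sham and 26.3, 34, 23.8, 23.1 and 20.8 CPM in CLP. The ranges overlapped (log2 fold change 0.59 ± 0.20, adjusted p = 0.0237), and the call was lost without Sham replicate 4 (adjusted p = 0.0666), Sham replicate 5 (adjusted p = 0.0532) or CLP replicate 3 (adjusted p = 0.0754). With stimulation the values were 15.8, 14.4, 12.3, 10.7 and 13.9 CPM in Sham+VNS and 23.4, 24.9, 21, 20.2 and 26.2 CPM in CLP+VNS, now apart (log2 fold change 0.78 ± 0.20, adjusted p = 0.00651).

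Sfrp2 was at 19.4, 5.8, 4.94, 5.2 and 13.9 CPM in Sham and 3.22, 4.73, 2.97, 3.52 and 3.53 CPM in CLP. All CLP libraries were below all Sham libraries, but 2 Sham libraries carried most of the difference (log2 fold change -1.45 ± 0.54, adjusted p = 0.0384), and without Sham replicate 1 the log2 fold change was -1.05 (adjusted p = 0.131). It was not called in 9 of 27 alternatives, among them leaving out Sham replicate 5 or CLP replicate 1, 4, 5 or 6. In Sham+VNS, Sfrp2 was at 3.02, 17, 8.03, 10.2 and 3.38 CPM and in CLP+VNS at 2.31, 9.18, 2.09, 1.28 and 3.79 CPM, not called (log2 fold change -1.15 ± 0.54, adjusted p = 0.124). The 2 highest Sham+VNS libraries, replicates 2 and 4, and the highest Sham library, replicate 1, were those with the highest summed adipocyte markers of their groups, while Sham replicate 5, the second highest of its group for Sfrp2, had the lowest such sum of its group, 17.8 CPM. The part of these markers in the Sfrp2 result was not tested. Dkk2, Dkk4, Notum, which strips the lipid from Wnt proteins, and Sfrp4 were not called in either comparison of the operations. Dkk4 was at 9.4 ± 1.15 CPM in Sham and 9.11 ± 0.859 CPM in CLP (log2 fold change -0.05 ± 0.12, adjusted p = 0.794), so that its share of the summed antagonist TPM went from 7.25% ± 1.09 to 14.6% ± 1.05. Dkk1 and Sfrp5 did not reach the count filter, with a highest value of 0.211 CPM for Dkk1. Sfrp5 was at 4.16 CPM in Sham replicate 1, and its next highest value was 1.04 CPM, in Sham+VNS replicate 2.

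The 4 intracellular members report or damp the signal. Nkd2, an antagonist that binds Dishevelled, had the lowest adjusted p of all members. It was at 25.6, 30.2, 23.7, 31.7 and 28.2 CPM in Sham and 9.79, 7.27, 10.8, 7.69 and 9.41 CPM in CLP. The groups were widely separated, with Nkd2 3.1-fold lower in CLP (log2 fold change -1.63 ± 0.12, adjusted p = 2.83e-08). With stimulation it was at 24, 21.5, 25.3, 25.2 and 24.6 CPM in Sham+VNS and 7.76, 11.8, 10.7, 11.3 and 12.2 CPM in CLP+VNS, also widely separated (log2 fold change -1.17 ± 0.12, adjusted p = 1.11e-06). Its relative Nkd1, the most abundant intracellular member by TPM, was not called, at 107 ± 11.2 CPM in Sham and 95.8 ± 10.8 CPM in CLP (log2 fold change -0.16 ± 0.09, adjusted p = 0.193), and 109 ± 13.8 CPM in Sham+VNS and 114 ± 10.7 CPM in CLP+VNS (log2 fold change 0.07 ± 0.09, adjusted p = 0.66).

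Axin2, the scaffold protein whose gene is the most used reporter of canonical Wnt signalling, was at 62.5, 53.4, 59.9, 52.7 and 68.5 CPM in Sham and 36.1, 41.1, 35.1, 37.9 and 43 CPM in CLP. The groups did not overlap, and Axin2 was 1.54-fold lower (log2 fold change -0.62 ± 0.12, adjusted p = 0.000343). In Sham+VNS it was at 65.7, 76.7, 54.5, 60.9 and 58.8 CPM and in CLP+VNS at 31, 52.2, 46.7, 43 and 47.2 CPM, again without overlap (log2 fold change -0.53 ± 0.12, adjusted p = 0.00219). Of the 3 feedback genes whose promoters are printed above, the 2 with the motif were thus 1 that fell and 1 that was not called, and Nkd2, without it in that stretch, fell most. Other parts of these genes were not searched, so this cannot show whether the motif bears on the changes, which was not tested.

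Lef1, a partner of β-catenin on DNA, was at 9.16, 6.85, 6.68, 10.8 and 8.35 CPM in Sham and 3, 3.53, 3.47, 2.93 and 2.72 CPM in CLP. All CLP libraries were below all Sham libraries (log2 fold change -1.42 ± 0.27, adjusted p = 0.000318). In stimulated animals Lef1 was at 8.22, 10.6, 6.04, 8.49 and 4.36 CPM after the sham operation and 2.09, 4.8, 4.76, 6.91 and 6.88 CPM after CLP, and the groups overlapped (log2 fold change -0.57 ± 0.26, adjusted p = 0.113). Tcf7, the gene of the related factor TCF1 and chosen after its values were seen, was at 36.3 ± 3.04 CPM in Sham and 16.9 ± 1.97 CPM in CLP (log2 fold change -1.10 ± 0.15, adjusted p = 9.74e-06). Both are also expressed in T cells. Of 9 tested T cell markers, 8 were lower and 1, Il7r, was higher in CLP (median log2 fold change -1.04), beside 20.5% of all genes lower. The 10 listed genes summed to 99.3 to 154 CPM in Sham and 71.2 to 80.8 CPM in CLP. Much of this was Cd4 and Il7r, with means of 47.5 and 17.6 CPM in Sham and 27.1 and 23.8 CPM in CLP. Cd3e, Cd3d and Cd3g had means of 8.48, 3.29 and 5.51 CPM in Sham and 3.19, 1.01 and 1.95 CPM in CLP. In the stimulated groups 8 of the 9 markers were lower, beside 13.4% of all genes. The sums were 73.5 to 115 CPM in Sham+VNS and 62.2 to 84.6 CPM in CLP+VNS, and none of the 10 was at 0. The part of T cells in the Lef1 result was not tested.

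Markers of tissue cells that surround these ligands moved as well. Of 12 fibroblast markers, 8 were lower and 1, Pdgfra, was higher in CLP (median -0.69), with sums of 2995 to 6822 CPM in Sham and 2495 to 3184 CPM in CLP. The 6822 CPM came from Sham replicate 1, and the other Sham sums were 2995 to 4601 CPM. Of 9 smooth muscle and pericyte markers, 5 were lower (median -0.47; 646 to 802 CPM in Sham, 440 to 692 CPM in CLP), and 5 of 9 endothelial markers were lower and 1 higher (median -0.64; 3826 to 4618 and 2908 to 3733 CPM). Between CLP+VNS and Sham+VNS, 4 fibroblast markers were lower and 2 higher (median -0.46; 2921 to 4325 CPM in Sham+VNS, 2271 to 3178 CPM in CLP+VNS). Of the smooth muscle and pericyte markers 3 were lower there (median -0.24; 644 to 696 and 430 to 664 CPM), and of the endothelial markers 5 were lower and 1 higher (median -0.35; 4029 to 4736 and 3366 to 5295 CPM). Over all genes tested, 20.5% were lower and 19.8% higher in CLP than in Sham, and 13.4% and 13.9% in CLP+VNS than in Sham+VNS. No gene of these marker lists was at 0 in all libraries, and their part in the lower Wnt5a, Wnt2, Fzd1, Fzd2, Dkk3 or Sfrp2 levels was not tested.

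Beyond the members, the pathway's other genes were counted in 4 lists. Of 30 tested intracellular pathway genes, 5 were higher and 7 lower in CLP than in Sham (median -0.05), near the 19.8% and 20.5% of all genes. Of 18 tested genes of Wnt secretion and other surface proteins, 1 was higher and 8 lower (median -0.40), and of 10 tested planar cell polarity genes, 1 was higher and 6 lower (median -0.42). Canonical target genes outside the rule went both ways, with 5 of 15 higher and 4 lower (median 0.27). With stimulation, 4 of the 30 intracellular genes were higher and 5 lower (13.3% and 16.7%), near the 13.9% and 13.4% of all genes. The counts, higher and lower, were 2 and 5 of 18 for secretion and surface proteins and 0 and 3 of 10 for planar cell polarity. For the target genes they were 4 and 4 of 15.

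The called genes of these lists with the largest changes were as follows. Frzb, also called Sfrp3, a secreted antagonist that the rule by symbol does not take in, was at 7.04, 7.48, 5.23, 6.33 and 5.11 CPM in Sham and 24.2, 12.4, 8.90, 46.6 and 12.3 CPM in CLP. It rose in every CLP library, by very different amounts (log2 fold change 1.74 ± 0.42, adjusted p = 0.00308), and in CLP+VNS against Sham+VNS by 1.91 ± 0.42 (adjusted p = 0.00224). Myc, a growth regulator, was higher in CLP (51.3 ± 3.76 against 28.1 ± 1.71 CPM in Sham; log2 fold change 0.87 ± 0.09, adjusted p = 9.97e-07), and so were the co-repressor gene Tle3 (0.60 ± 0.07, adjusted p = 4.16e-06) and Birc5, an inhibitor of cell death made by dividing cells (1.01 ± 0.35, adjusted p = 0.0262). Birc5 was not called with stimulation (0.07 ± 0.35, adjusted p = 0.918). The matricellular genes Ccn2 and Ccn5 were lower in CLP, Ccn2 at 104 ± 17.2 against 235 ± 20.5 CPM (log2 fold change -1.18 ± 0.19, adjusted p = 6.78e-05) and Ccn5 at 18.3 ± 6.66 against 46.7 ± 11.0 CPM (-1.35 ± 0.26, adjusted p = 0.000503). Cdx1 (-1.76 ± 0.41, adjusted p = 0.00216) and Cthrc1 (-1.37 ± 0.42, adjusted p = 0.0143) fell from means of 1.54 and 1.81 CPM in Sham.

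Vagus nerve stimulation itself changed no member beyond the threshold. In CLP+VNS against CLP, 0 of 41 members were called by edgeR, beside 0% of all genes called higher and 0.027% lower. An unadjusted p below 0.05 was found for 6 members (14.6%), near the 13.0% over all genes. DESeq2 and limma-voom also called 0 members, although DESeq2 called 55 genes higher and 89 lower over the whole table. The 6 members were Fzd8 (log2 fold change 0.48 ± 0.15 (adjusted p = 0.209)), Fzd4 (0.37 ± 0.14 (adjusted p = 0.257)), Nkd1 (0.25 ± 0.09 (adjusted p = 0.278)), Lef1 (0.70 ± 0.27 (adjusted p = 0.281)), Lrp6 (0.12 ± 0.05 (adjusted p = 0.284)) and Wif1 (0.37 ± 0.16 (adjusted p = 0.354)). In Lrp6 every CLP+VNS library was above every CLP library, and in Rspo1 every one was below (log2 fold change -0.37 ± 0.23, adjusted p = 0.516). These were the only members without overlap, 1 in each direction, beside 1.12% of all genes higher and 1.14% lower. The mesothelium sums were also lower in every CLP+VNS library than in every CLP library, at 324 to 507 and 601 to 801 CPM, and their part in the Rspo1 values was not tested.

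CLP+VNS replicate 1 bears on this comparison. It was the lowest library of its group for 24 of the 41 tested members, among them Wnt5a, Wnt7a, Wif1, Fzd1, Fzd8, Lef1, Axin2 and Nkd2. The same count was not made over all genes, so it cannot be read as a trait of the members. Without CLP+VNS replicate 1, 1 member, Lef1, was called higher in CLP+VNS than in CLP (log2 fold change 0.89 ± 0.22, adjusted p = 0.0440). Because Lef1 was lowest in that library, leaving the library out raises the Lef1 mean of CLP+VNS. Over all genes 133 were then called higher and 151 lower, against 0 and 4 with replicate 1 kept. This library also stood apart in cell type markers. Its endothelial markers summed to 3366 CPM, against 4104 to 5295 CPM in the other 4 libraries of its group and 2908 to 3733 CPM in CLP. Its macrophage markers summed to 1069 CPM, against 691 to 816 CPM in the other 4 and 873 to 1205 CPM in CLP. Its smooth muscle and pericyte sum (430 CPM, others 534 to 664) and airway epithelium sum (5095 CPM, others 6376 to 9134) were also the lowest. Its adipocyte sum (111 CPM, others 42.5 to 61.4), which shares Fabp4 with the macrophage sum, and mesothelium sum (507 CPM, others 324 to 474) were the highest. Its T cell sum (70.3 CPM, others 62.2 to 84.6) lay within the range, as did its fibroblast, neutrophil, alveolar type 1 and alveolar type 2 sums. The part of these markers in the Lef1 result was not tested.

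In Sham+VNS against Sham, 0 members were called by edgeR, DESeq2 and limma-voom, as over all genes by edgeR (0% in each direction), and 2 (4.88%) had an unadjusted p below 0.05, beside 8.01% of all genes. These were Rspo1 (-0.58 ± 0.21 (adjusted p = 0.589)), in which Sham replicate 1 was the highest library, and Dkk3 (-0.29 ± 0.13 (adjusted p = 0.622)).

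The interaction, which asks whether the difference with stimulation depended on the operation, was called for 0 of 41 members by the same 3 tools and for 0% of all genes by edgeR. An unadjusted p below 0.05 was found for 8 members (19.5%), beside 8.23% of all genes, namely Fzd4, Fzd8, Nkd2, Wif1, Fzd6, Lef1, Wnt5a and Lrp6, with the lowest adjusted p, 0.512, for Fzd4 (log2 difference 0.60 ± 0.19) and Fzd8 (0.65 ± 0.22). Of the 25 members called in CLP against Sham, 20 (80.0%) had a smaller change in CLP+VNS against Sham+VNS, which was also the case for 82.5% of the 5955 genes called over the whole table.

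**Figure D4:**
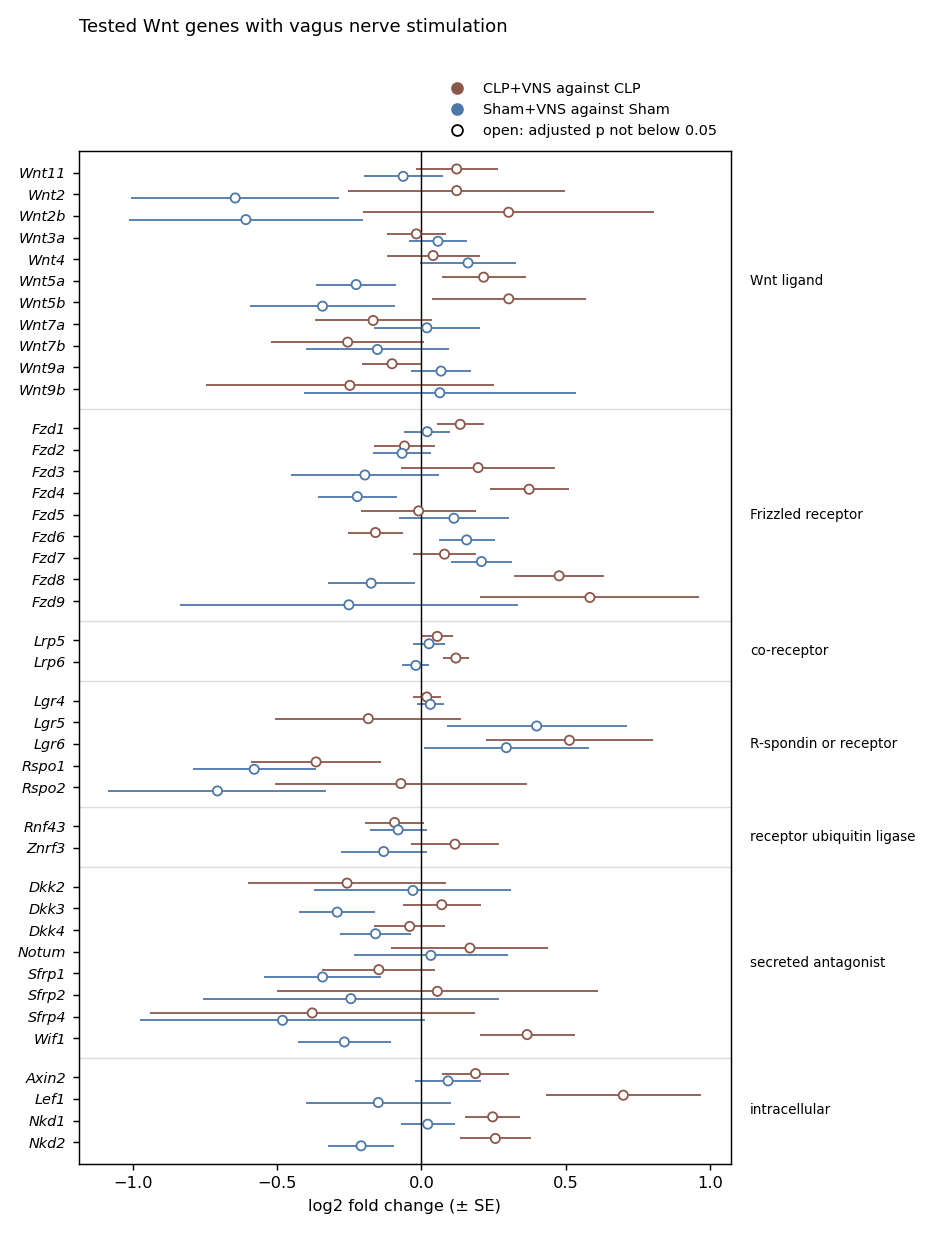
Log2 fold change with its standard error (x axis) of each of the 41 tested Wnt genes (y axis, grouped by role) with stimulation, for CLP+VNS against CLP in brown and Sham+VNS against Sham in blue, 5 libraries per group. All points are open, since none had an adjusted p below 0.05; Lef1, Fzd9 and Lgr6 lie furthest right in brown.

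The transcript table listed 118 transcripts of the 52 genes. For 15 members with at least 2 transcripts above the minimum, the share of the leading transcript was compared by an exact two-sided permutation test, and 0 were called after adjustment in either comparison of the operations. Without adjustment 2 of 15 had a p below 0.05 in CLP against Sham and 0 of 15 in CLP+VNS against Sham+VNS. For Wnt4 the leading transcript made up 55.9% ± 1.28 of the gene's TPM in Sham and 62.9% ± 3.27 in CLP (n = 5 each, exact permutation p = 0.00794, the smallest that 5 against 5 can give, adjusted p = 0.119), and 59.4% ± 3.41 and 61.5% ± 2.09 with stimulation. For Fzd8 it made up 61.3% ± 13.6 in Sham and 47.4% ± 4.32 in CLP (exact permutation p = 0.0238, adjusted p = 0.179), and 54.0% ± 6.14 and 49.8% ± 3.60 with stimulation.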

How the data were processed

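The members, gene lists and tests were chosen with earlier results of these data known. The authors deposited a gene table and a transcript table with unscaled expected counts, which are estimated (91.5% of gene values are whole), and TPM values, per the file headers. Per the labels' protocols, libraries were poly(A)-selected and strand-specific, read as pairs. Reads were aligned to mRatBN7.2, per the submitters' processing notes; the aligner, counter and annotation are unknown from the sources used here, and so is the way reads shared by related genes were divided.

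Expected counts were rounded, filtered with filterByExpr (minimum count 10; 14794 of 19060 genes kept), scaled by TMM and fitted with edgeR 4.0.16 (R 4.3.3; robust quasi-likelihood, 4 group means, 20 libraries, common biological coefficient of variation 0.161, 16 residual degrees of freedom). Calls were made at a Benjamini-Hochberg adjusted p below 0.05 over all tested genes. Errors of log2 fold changes are the estimate divided by the square root of F. Alternatives were other scalings, no filter, DESeq2 1.42.0, limma-voom 3.58.1, a fit of the 2 groups alone, a replicate block and leaving out each library. The labels do not tie each library to a named animal or batch, so p-values measure the spread between these samples, which may in part be technical. The fit was also run on simulated data in which 200 genes were changed, far fewer than the 5955 called in CLP against Sham. That run therefore does not cover changes as widespread as these, and its outcome is not given here.

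Members called anywhere with a log2 fold change of at least 0.5 in size, 23 genes, are given library by library; other pathway genes are the 4 largest called changes each way with a mean of at least 1 CPM. Of 182 list genes 179 matched the table, 2 by an older symbol. Of the gene identifiers, 18800 were in the RefSeq table. Transcript shares used transcripts with at least 10% of a gene's TPM in genes of at least 1 TPM, and scipy 1.17.1.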

Additional observations from a re-analysis of the deposited data

Results flagged for a closer look

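For the 23 members given library by library, the highest or lowest CPM of each group was compared with its nearest neighbour, and a library was singled out where that gap was above 0.71 of the group's range. This was so in 7 of 92 groups, and chance alone gives about 5% of groups. Wnt5a in CLP+VNS replicate 1 was 11.5 CPM, below the other 4 libraries at 19.6 to 20.0 CPM. Wnt2 in the same library was 3.65 CPM, below 5.55 to 6.31 CPM. Wnt2 was also high in 1 library each of Sham+VNS (replicate 4, 12.6 CPM, others 5.01 to 6.72) and CLP (replicate 3, 9.32 CPM, others 3.07 to 4.78). Rspo2 was 1.71 CPM in Sham+VNS replicate 4, above 0.755 to 0.914 CPM. Dkk3 was 40.7 CPM in CLP replicate 5, above 30.8 to 32.7 CPM. Fzd9 was 0.798 CPM in Sham replicate 3, above 0.0704 to 0.207 CPM.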

How the results depend on the processing

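No member's called difference changed direction in any of the 27 alternatives per comparison. Of the 25 members called in CLP against Sham, 22 kept the call in all of them, and Sfrp1, Sfrp2 and Wnt2 lost it in some; of the 22 called in CLP+VNS against Sham+VNS, 15 kept it, and Dkk3, Fzd7, Fzd8, Lgr4, Wnt2b, Wnt5b and Wnt7b lost it in some. Leaving out 1 library gave 4 to 5 members called higher and 19 to 21 lower in CLP against Sham, 5 to 6 and 14 to 19 in CLP+VNS against Sham+VNS, and 0 to 1 higher in CLP+VNS against CLP, the 1 being Lef1 without CLP+VNS replicate 1. In CLP+VNS against Sham+VNS, total count scaling called 20 members lower, DESeq2 19 and the unfiltered fit 15. Same-numbered libraries were compared by the correlation of their deviations from the group means. Over 22 same-numbered pairs it ran from -0.163 to 0.178 (median 0.0035), and over 128 other pairs from -0.264 to 0.233 (median -0.0095). These correlations cannot show whether equal numbers mark paired animals or a shared day or batch. A replicate block called 5 members higher and 18 lower in CLP against Sham and 4 and 12 in CLP+VNS against Sham+VNS. Under it the Fzd7 log2 fold change in the latter was -0.45 in place of -0.30. Scaling by total count moved the median of all genes in CLP against Sham to -0.07, from -0.01. Members near or under 1 CPM, such as Fzd9, Rspo2 and Wnt2b after CLP, rest on few reads per library.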
